A study of Mus musculus with 8 samples.

Results

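The genes described here are 46 components of the Wnt pathway, made up of 8 ligands, 13 receptors and co-receptors, 7 intracellular transducers, 6 extracellular inhibitors, 6 feedback inhibitors and 6 other reported targets of beta-catenin. They were chosen by name, and their probes were those whose transcript belongs to one of these genes. The 46 genes had 63 of the 55681 probes on the array. They were compared between ureteric bud cells lacking Dot1 (KO) and wild-type cells (WT). Dot1l encodes the methyltransferase of a lysine residue in the core of histone H3.

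The ureteric bud is a branching epithelium of the developing kidney from which the collecting ducts form. Wnt proteins bind Frizzled receptors together with Lrp5 or Lrp6 on a receiving cell. In the canonical branch this keeps beta-catenin from being degraded, and beta-catenin then acts with Tcf and Lef factors on target genes, several of which encode inhibitors of the same pathway. In the mouse kidney, Wnt9b made by the bud induces the neighbouring mesenchyme to form nephrons, Wnt11 is made at the bud tips, and Wnt7b made by the collecting duct is needed for the medulla. Wnt4 is made by the mesenchyme that turns into epithelium.

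All samples were GFP-positive cells sorted by flow cytometry from kidneys of C57BL/6 mice at postnatal day 0. The KO group held 4 samples of DOT1-null cells, made by a conditional deletion of Dot1 in Hoxb7-positive cells, and the WT group held 4 control samples. The sources used here do not name the GFP source, the Cre line or the number of animals per sample. The p-values weigh the difference between the groups against the spread of these samples. Whether that is the spread among animals is therefore not known. Each of the 8 arrays read 1 sample in Cy5 against the RNA of WT replicate 3 in Cy3, which is therefore in every measurement. The array of WT 3 read that RNA against itself, so that a value away from 0 there is a difference between the dyes. For this reason only differences between arrays are compared, as log2 ratios of Cy5 to Cy3, and no gene's level is set against another's.

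Several properties of the arrays moved with the groups. The share of spots well above background was 59.1%, 68.9%, 95.2% and 61.5% on KO 1 to KO 4, against 52.4% to 56.2% on the WT arrays. KO 3 had 7665 spots marked as outliers, against 175 to 216 on the other arrays. KO 2 lay nearest to the WT arrays, with 87 genes at least 2-fold from the WT mean, against 504 to 1107 on the other KO arrays and 83 to 146 on the WT arrays. The KO arrays filled one row of the slide and the WT arrays its other row, so that position on the slide and genotype cannot be told apart. The Dot1l probe read 0.35, 0.03, -0.04 and 0.30 on KO 1 to KO 4, against 0.03, -0.05, -0.11 and 0.07 on WT 1 to WT 4, a difference of 0.18 ± 0.11 (SE, limma adjusted p = 0.342). The sources used here do not say whether this probe lies in the deleted part, so it does not check the labels.

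Markers of the sorted cells and of neighbouring cell types were read on the same arrays. All 12 ureteric bud markers examined were well above background on all 8 arrays, as were all 9 markers of nephron progenitors and early nephrons and 10 of 12 stromal markers. The median log2 ratio over the ureteric bud markers lay between -0.48 and -0.04 on the KO arrays and between -0.13 and 0.16 on the WT arrays. Of the 12, 9 (75%) had a lower mean in KO, beside 54.1% of all genes. The nephron progenitor markers had a median of -0.07, 0.57, 0.03 and 0.22 on KO 1 to KO 4, against 0.50, 0.89, 0.10 and 0.23 on WT 1 to WT 4. The stromal markers had a median of -0.09, 1.31, 0.20 and 0.63 on KO 1 to KO 4, against 1.13, 1.00, 0.04 and 0.98 on WT 1 to WT 4. Markers of podocytes, endothelium, urothelium and leukocytes had median differences of -0.16, 0.26, 0.31 and -0.34 between KO and WT. The part of these shifts in the Wnt values below was not tested. In bulk samples such as these, fewer cells of a type and less RNA per cell cannot be told apart.

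Of the 46 Wnt genes, 44 could be tested, and 43 of these were read by a probe well above background on all 8 arrays. The exception was Sp8, whose probe was well above background on 2 KO and 2 WT arrays. Wnt2b was above background on no array, and Wnt7a on 3 KO and 0 WT arrays. The Wnt7a log2 ratios were not higher in KO, with a mean of -0.05 over 3 KO values against 0.02 in WT. More spots of any kind were above background on the KO arrays, so this detection does not show Wnt7a to be higher in KO. No Wnt gene passed the limma test of 4 KO against 4 WT arrays at an adjusted p of 0.05. The lowest adjusted p was 0.105, and 0.00857% of all 23343 genes tested passed. An unadjusted p under 0.05 was reached by 13 Wnt genes and by 24.1% of all genes. Of the Wnt genes, 5 were higher in KO, or 11.4% against 10.4% of all genes. At the same level 8 were lower in KO, or 18.2% against 13.6% of all genes. Both shares lay near those of all genes. The log2 fold changes ran from -0.67 to 1.50 with a median of -0.05, against a median of -0.02 over all genes, and 25 of the 44 (56.8%) were below 0, against 54.1% of all genes.

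For 7 Wnt genes the ranges of the KO and WT arrays were apart. Sp5 (NM_022435), Ascl2 (NM_008554) and the receptor Fzd10 (NM_175284) were higher on every measured KO array than on any WT array, which is 6.82% of the 44 beside 4.22% of all genes. The ligand Wnt10a (NM_009518), the co-receptor Lrp5 (NM_008513), the receptor Fzd3 (NM_021458) and the transcription factor Tcf7l1 (NM_001079822) were lower on every KO array, which is 9.09% beside 7.62% of all genes. Leaving out KO 2, 10 Wnt genes and 21.2% of all genes passed the limma test. These were Sp5 upward, 2.27% of the 44 where 10.0% of all genes passed upward, and 9 genes downward, 20.5% where 11.2% of all genes passed downward. The 9 were Wnt10a, Lrp5, Fzd2, Fzd3, Fzd8, Tcf7, Tcf7l1, Tcf7l2 and Znrf3. Leaving out any other single array gave 0 Wnt genes. KO 2 lay nearest to the WT arrays, so leaving it out makes passes more likely. For Fzd2, Fzd8, Tcf7, Tcf7l2 and Znrf3 it was the KO array inside or above the WT range, so these passes follow from leaving it out and support nothing. For Wnt10a, Lrp5, Fzd3 and Tcf7l1 it was the KO array nearest the WT range. Leaving it out favoured their passes too, so they add no support. Values without KO 2, here and below, are therefore a description only. With both KO 2 and KO 3 left out, a choice made after seeing the data, 9 Wnt genes and 23.6% of all genes passed. Sp5 and Notum passed upward, 4.55% beside 13.5% of all genes. In that fit Wnt10a, Lrp5, Fzd2, Fzd8, Tcf7l1, Tcf7l2 and Axin2 passed downward, 15.9% beside 10.1% of all genes. For Axin2 the arrays left out were the KO arrays inside the WT range, and for Notum they held the one KO array below it, so both passes follow from the choice and support nothing. Fzd2, Fzd8 and Tcf7l2 again lost their KO array inside or above the WT range. Wnt10a, Lrp5 and Tcf7l1 again lost the KO array nearest to it, so these passes add no support either.

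**Figure D1:**
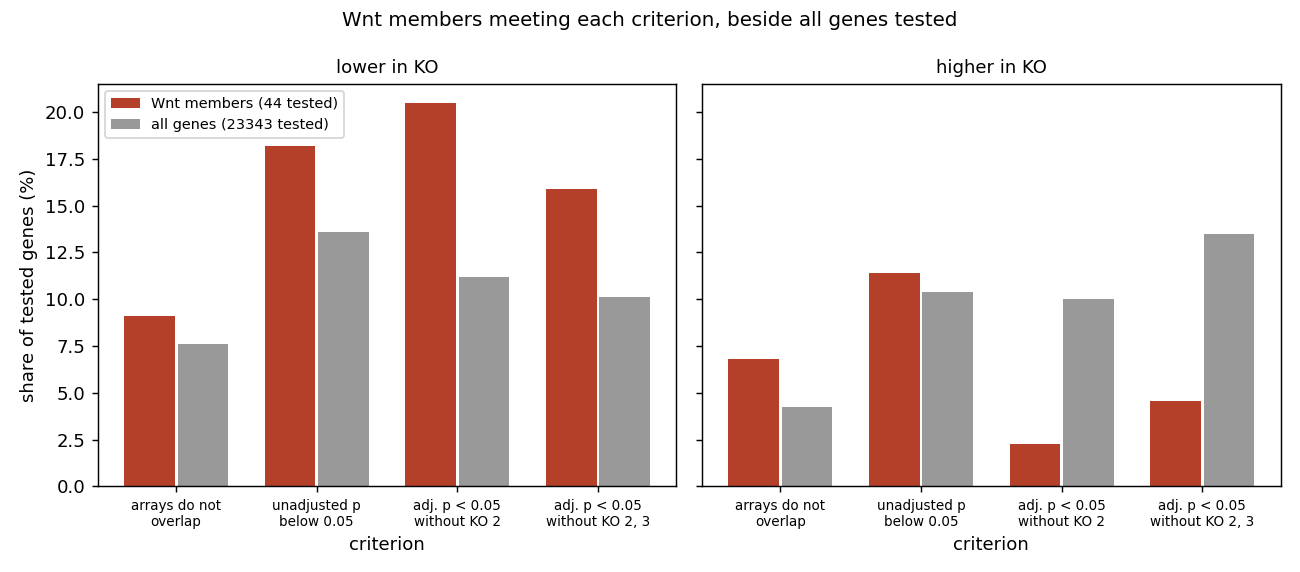
Share of the 44 tested Wnt genes (red) and of all 23343 tested genes (grey) meeting each criterion, lower in KO on the left and higher in KO on the right, in percent. Without KO 2, 20.5% of the Wnt genes were lower against 11.2% of all genes, and 2.27% were higher against 10.0%. KO 2 was the KO array nearest the WT arrays, so leaving it out makes passes more likely.

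**Figure D2:**
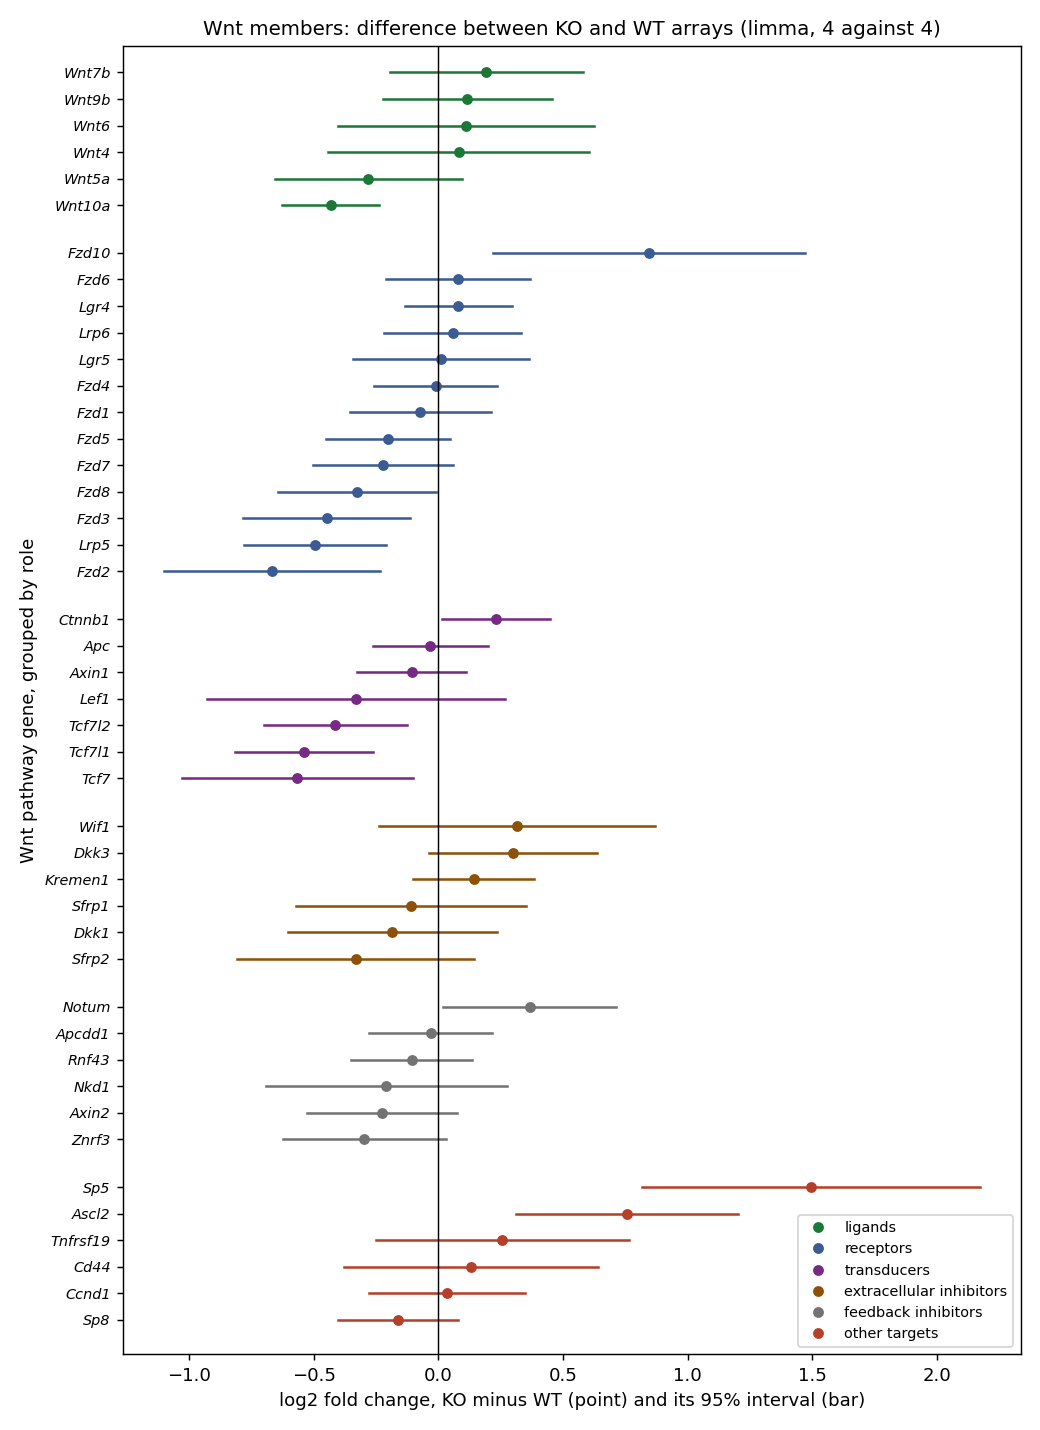
Log2 fold change of KO minus WT for each of the 44 tested Wnt genes, grouped by role, as points with 95% intervals as bars. Sp5 lies farthest to the right at 1.50 and Fzd2 farthest to the left at -0.67.

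Promoter sequences were available for 27 of the 46 genes, from RefSeq on GRCm38.p6, as windows of 300 bases from 250 before to 50 after the start. They are printed for those of the 7 genes without overlap that have a window, because these are the genes whose groups separated and because Tcf and Lef factors bind a short DNA motif. The motif searched was CTTTG followed by A or T and then again by A or T, read on both strands, and its matches are in capitals. Sp5 lies at chr2:70474673-70474972 on the plus strand, Fzd10 at chr5:128600856-128601155 on the plus strand, Ascl2 at chr7:142969215-142969514 on the minus strand and Tcf7l1 at chr6:72788996-72789295 on the minus strand, each printed 5′ to 3′ as its gene is read.
Sp5: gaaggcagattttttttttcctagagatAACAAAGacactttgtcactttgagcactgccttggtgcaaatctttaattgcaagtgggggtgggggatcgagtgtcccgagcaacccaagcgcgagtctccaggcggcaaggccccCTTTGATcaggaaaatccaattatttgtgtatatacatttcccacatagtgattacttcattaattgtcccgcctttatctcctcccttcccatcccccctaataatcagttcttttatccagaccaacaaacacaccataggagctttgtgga
Fzd10: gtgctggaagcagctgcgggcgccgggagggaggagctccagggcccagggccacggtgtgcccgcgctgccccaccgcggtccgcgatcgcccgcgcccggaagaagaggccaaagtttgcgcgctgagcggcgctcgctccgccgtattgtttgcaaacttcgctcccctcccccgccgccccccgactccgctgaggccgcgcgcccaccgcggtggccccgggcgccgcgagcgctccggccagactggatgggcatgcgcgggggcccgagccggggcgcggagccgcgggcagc
Ascl2: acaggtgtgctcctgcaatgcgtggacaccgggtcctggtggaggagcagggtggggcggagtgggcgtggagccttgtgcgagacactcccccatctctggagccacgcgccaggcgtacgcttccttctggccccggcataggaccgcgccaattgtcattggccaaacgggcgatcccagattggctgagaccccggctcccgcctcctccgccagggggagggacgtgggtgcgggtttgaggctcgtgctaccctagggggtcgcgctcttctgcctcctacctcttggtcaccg
Tcf7l1: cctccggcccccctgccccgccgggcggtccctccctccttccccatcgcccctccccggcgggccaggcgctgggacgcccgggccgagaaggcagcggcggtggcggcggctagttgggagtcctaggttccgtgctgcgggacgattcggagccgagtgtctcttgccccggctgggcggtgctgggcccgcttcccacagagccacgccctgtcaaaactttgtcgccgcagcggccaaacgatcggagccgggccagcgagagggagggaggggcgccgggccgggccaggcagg
The Sp5 window held 2 matches, AACAAAG at positions 29 to 35 on the opposite strand and CTTTGAT at positions 147 to 153, counted from its first base. The windows of Fzd10, Ascl2 and Tcf7l1 held no full match to the motif. The Sp5 window was 45% G and C, against 77.7% for Fzd10, 67% for Ascl2 and 75.3% for Tcf7l1. Over the Wnt genes 7 of 37 windows held the motif, or 18.9%, against 16.9% of all 32851 windows. The window of Dkk1 also held 2 matches, and 1 window each of Fzd7, Lef1, Sp8, Tcf7l2 and Tnfrsf19 held 1. On the probes used, Dkk1, Fzd7, Lef1, Sp8 and Tcf7l2 had a lower mean in KO, and Sp5 and Tnfrsf19 a higher one. A match is a run of letters and does not show binding.

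Of the 6 ligands tested, Wnt10a was lower on every KO array, as were 7.62% of all genes, and the other 5 overlapped. Wnt10a, a canonical ligand, read -0.93, -0.85, -0.87 and -1.12 on KO 1 to KO 4, against -0.47, -0.57, -0.51 and -0.50 on WT 1 to WT 4. Its highest KO array lay below its lowest WT array, and the 4 WT arrays lay close together. WT 3, with the same RNA in both dyes, read -0.51, which is a difference between the dyes. The mean was -0.94 ± 0.12 in KO and -0.51 ± 0.04 in WT (SD, n = 4 each), which is 1.35-fold lower in KO. The difference was -0.43 ± 0.09 (SE) with a 95% interval of -0.63 to -0.24 and a limma adjusted p of 0.105, which passed without KO 2 at -0.46 (limma adjusted p = 0.0091). With Cy5 alone, taken relative to the median of all genes, it was -0.88. Wnt5a, a ligand of the branch that does not use beta-catenin, read -0.10, -0.41, -0.83 and -0.10 on KO 1 to KO 4, against -0.06, -0.31, 0.10 and -0.05 on WT 1 to WT 4. KO 3 was the low array and the groups overlapped. Its difference was -0.28 ± 0.17 (SE, limma adjusted p = 0.328), and -0.02 with KO 2 and KO 3 both left out.

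Of the ligands known from the bud and its derivatives, neither Wnt7b nor Wnt9b separated the groups. Wnt7b read -0.04, 0.40, -0.09 and 0.59 on KO 1 to KO 4, against 0.02, -0.25, 0.06 and 0.26 on WT 1 to WT 4. KO 2 and KO 4 were the high arrays, and the difference was 0.19 ± 0.17 (SE, limma adjusted p = 0.518). Wnt9b, singled out after its values were seen, read 1.24, 1.33, 0.83 and 0.85 on KO 1 to KO 4, against 0.95, 0.93, 0.69 and 1.22 on WT 1 to WT 4. The WT 3 array, with the same RNA in both dyes, also read well above 0 for this probe. Its difference was 0.12 ± 0.15 (SE), with a 95% interval of -0.22 to 0.45.

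Wnt4 read 0.18, 1.05, 0.23 and 0.64 on KO 1 to KO 4, against 0.61, 0.91, 0.05 and 0.22 on WT 1 to WT 4. KO 2 was its highest KO array, and WT 3, read against its own RNA, was its lowest WT array. The difference was 0.08 ± 0.23 (SE), and -0.21 on the gene's other probe, so its direction was not settled. Wnt6 differed by 0.11 ± 0.23 (SE).

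**Figure D3:**
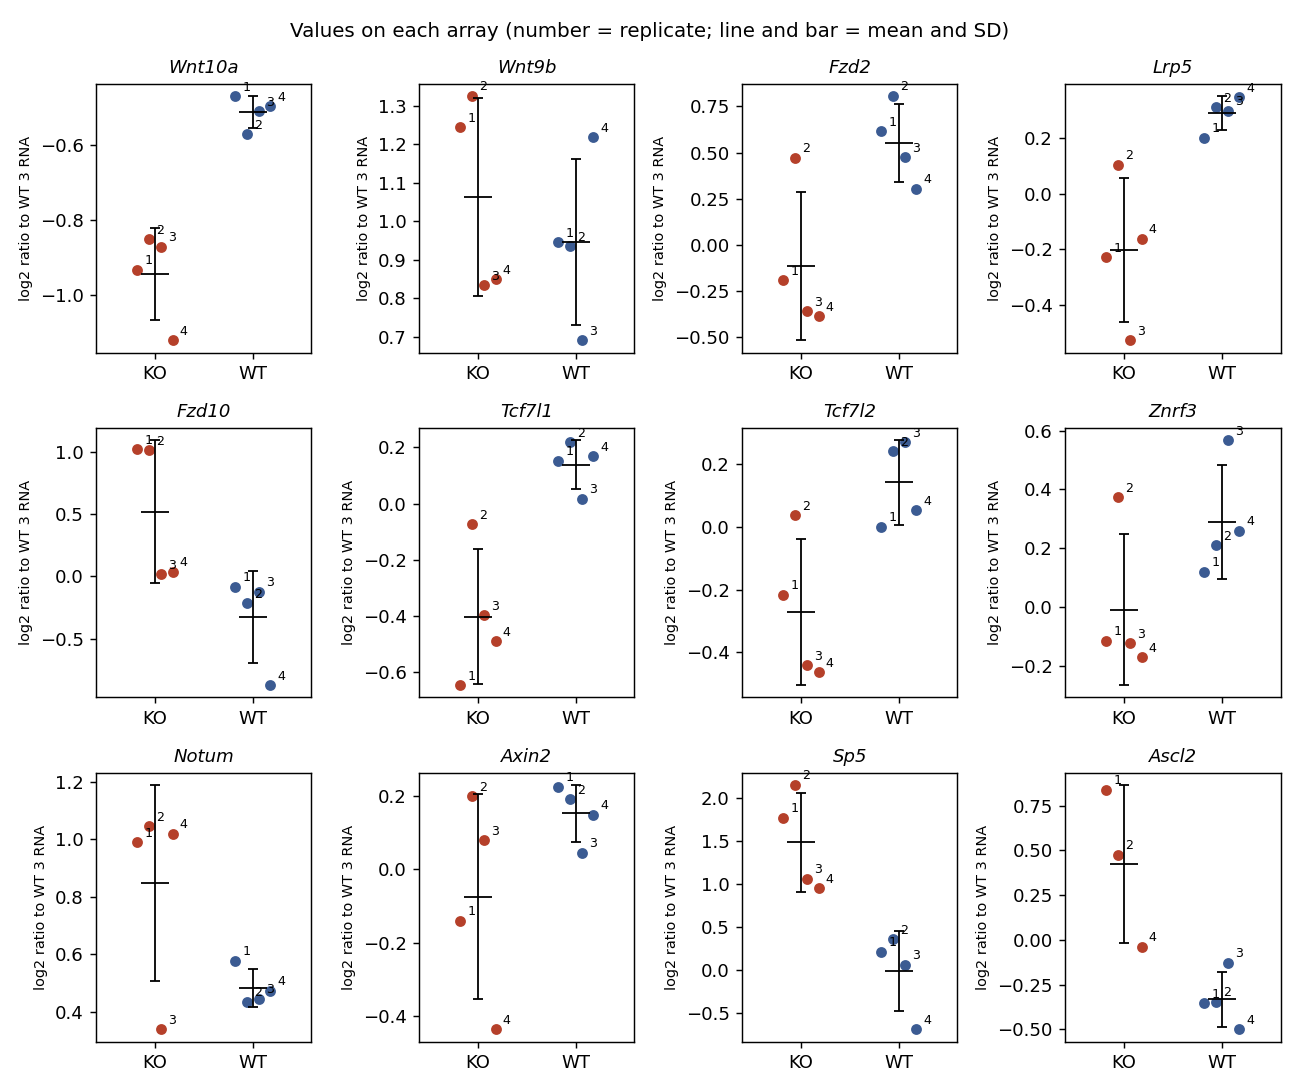
Log2 ratio to the RNA of WT 3 on each array for 12 Wnt genes, KO left and WT right, with the replicate number beside each point and the mean and SD as line and bar. The vertical scale differs between panels. Wnt10a, Lrp5, Tcf7l1, Fzd10, Sp5 and Ascl2 show no overlap between the groups, and KO 2 is the KO array nearest the WT arrays for Fzd2, Lrp5, Tcf7l1 and Znrf3.

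The receptors held the lowest difference of the set, at Fzd2, and the second highest, at Fzd10. Of the 13, 8 had a lower mean in KO (61.5%, beside 54.1% of all genes), with a median difference of -0.07, and -0.12 without KO 2. Lrp5, a co-receptor of canonical signalling, read -0.23, 0.10, -0.53 and -0.16 on KO 1 to KO 4, against 0.20, 0.31, 0.30 and 0.35 on WT 1 to WT 4. Every KO array was below every WT array, with KO 2 the closest to them. The mean was -0.20 ± 0.26 in KO and 0.29 ± 0.06 in WT (SD, n = 4 each), or 1.41-fold lower in KO. The difference was -0.49 ± 0.13 (SE, limma adjusted p = 0.112), and -0.60 without KO 2 (limma adjusted p = 0.00685).

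Fzd2 read -0.19, 0.47, -0.36 and -0.39 on KO 1 to KO 4, against 0.62, 0.81, 0.48 and 0.31 on WT 1 to WT 4. KO 2 lay among the WT arrays and the other 3 KO arrays lay below all of them. The difference was -0.67 ± 0.19 (SE, limma adjusted p = 0.118), 1.59-fold lower in KO, and -0.86 without KO 2 (limma adjusted p = 0.00368). A further probe of Fzd2 gave a smaller difference of -0.22. Fzd3, a receptor known for neuronal wiring and planar polarity, read -0.45, -0.35, -1.04 and -0.65 on KO 1 to KO 4, against -0.24, -0.03, -0.11 and -0.33 on WT 1 to WT 4. The groups were separated by a narrow gap between KO 2 and WT 4. Its difference was -0.45 ± 0.15 (SE, limma adjusted p = 0.133), and -0.54 without KO 2 (limma adjusted p = 0.0307).

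Fzd8 read 0.03, 0.47, -0.26 and -0.02 on KO 1 to KO 4, against 0.31, 0.41, 0.45 and 0.37 on WT 1 to WT 4. KO 2 was the highest of all 8 arrays, and the other KO arrays were below every WT array. The difference was -0.33 ± 0.14 (SE, limma adjusted p = 0.197), and -0.47 without KO 2 (limma adjusted p = 0.0111). Fzd10 read 1.02, 1.01, 0.02 and 0.04 on KO 1 to KO 4, against -0.08, -0.22, -0.12 and -0.87 on WT 1 to WT 4. The KO arrays fell into a high pair and a pair close to the WT arrays, and WT 4 was far below the other WT arrays. The difference was 0.84 ± 0.28 (SE, limma adjusted p = 0.132), 1.80-fold higher in KO, and 0.68 without KO 2 (limma adjusted p = 0.115).

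Lrp6, the other co-receptor, read -0.13, -0.38, -0.01 and -0.46 on KO 1 to KO 4, against -0.36, -0.20, -0.17 and -0.48 on WT 1 to WT 4. These arrays overlapped, with a difference of 0.06 ± 0.12 (SE). A different Lrp6 probe gave -0.35 ± 0.14 (SE), so the gene has no settled direction here. The probes used for the remaining receptors differed by -0.22 to 0.08. Fzd7 differed by -0.22 with its KO 3 spot left out. Its other tested probe, with all 8 values, gave -0.32 ± 0.11 (SE), with -0.15, 0.05, -0.13 and -0.49 on KO 1 to KO 4, against 0.08, 0.12, 0.22 and 0.14 on WT 1 to WT 4. On that probe every KO array was below every WT array. Fzd5 differed by -0.20, and by -0.14 on its other probe, Fzd1 by -0.07, Fzd4 by -0.01 and Fzd6 by 0.08. Lgr4 and Lgr5, receptors for R-spondins that raise the response to Wnt, differed by 0.08 and 0.01.

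Transducers had the lowest median of the 6 roles, -0.33, and -0.48 without KO 2. Of the 7, 6 were below 0 (85.7%, beside 54.1% of all genes). Tcf7l1, a Tcf factor best known as a repressor of targets, read -0.64, -0.07, -0.40 and -0.49 on KO 1 to KO 4, against 0.15, 0.22, 0.02 and 0.17 on WT 1 to WT 4. No KO array reached the lowest WT array, and KO 2 was the nearest. The mean was -0.40 ± 0.24 in KO and 0.14 ± 0.09 in WT (SD, n = 4 each), or 1.45-fold lower in KO. The difference was -0.54 ± 0.12 (SE) with a 95% interval of -0.82 to -0.26 (limma adjusted p = 0.106), and -0.65 without KO 2 (limma adjusted p = 0.00363).

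Tcf7l2, a Tcf factor that activates or represses by context, read -0.22, 0.04, -0.44 and -0.46 on KO 1 to KO 4, against 0.00, 0.24, 0.27 and 0.05 on WT 1 to WT 4. Only KO 2 reached into the WT range. The difference was -0.41 ± 0.13 (SE, limma adjusted p = 0.123), and -0.52 without KO 2 (limma adjusted p = 0.0117). The gene's other probes gave -0.12 and 0.19, so its transcripts were not read alike. Tcf7 read 0.09, 0.33, -0.21 and -0.59 on KO 1 to KO 4, against 0.88, 0.43, 0.35 and 0.23 on WT 1 to WT 4. KO 2 again lay within the WT range. Its difference was -0.57 ± 0.21 (SE, limma adjusted p = 0.151), and -0.71 without KO 2 (limma adjusted p = 0.0319), with -0.21 on its other probe.

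Lef1, the fourth of the family, differed by -0.33 ± 0.27 (SE), and its groups overlapped. On the probes used, all 4 Tcf and Lef factors had a lower mean in KO, as did 54.1% of all genes. One further probe of Tcf7l2 went the other way, at 0.19. Ctnnb1, which encodes beta-catenin itself, was singled out after its values were seen and was the only transducer with a higher mean in KO. It read 0.46, 0.24, 0.40 and 0.46 on KO 1 to KO 4, against 0.26, 0.05, 0.03 and 0.29 on WT 1 to WT 4. KO 2 was the one KO array inside the WT range, and the difference was 0.23 ± 0.10 (SE, limma adjusted p = 0.186). Of the scaffolds that hold beta-catenin for degradation, Axin1 differed by -0.11 ± 0.10 (SE). Apc read 0.06, -0.23, -0.20 and 0.09 on KO 1 to KO 4, against -0.17, 0.06, -0.04 and 0.00 on WT 1 to WT 4. Its arrays overlapped, at -0.03 ± 0.10 (SE), and its other probe gave 0.05.

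**Figure D4:**
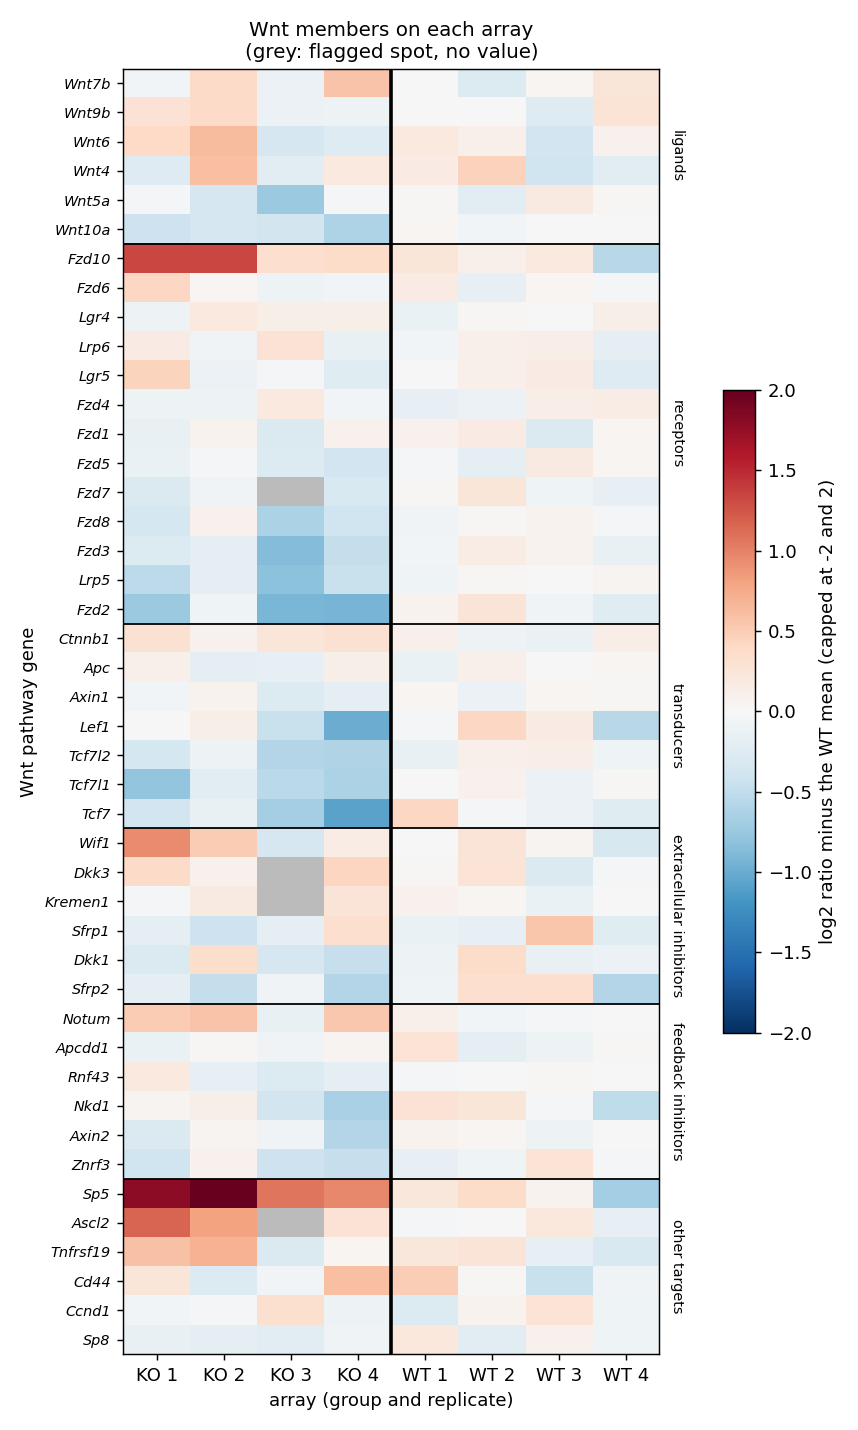
Log2 ratio minus the WT mean for each tested Wnt gene (down, by role) on each array (across, KO left and WT right), blue below and red above the WT mean, capped at 2 either way. Grey marks a spot left out on KO 3, and the blue of Fzd2, Lrp5 and the Tcf factors is paler on KO 2 than on KO 4.

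Extracellular inhibitors did not separate the groups. Their median difference was 0.02, with 3 of 6 on each side of 0, and no gene of the role reached an unadjusted p under 0.05. Dkk3, a Dickkopf family member, read 0.69, 0.40 and 0.74 on KO 1, KO 2 and KO 4, against 0.34, 0.59, 0.03 and 0.30 on WT 1 to WT 4. Its KO 3 spot was left out, and the difference was 0.30 ± 0.15 (SE, limma adjusted p = 0.252). Sfrp2, a secreted Frizzled-like protein, read -0.50, -0.80, -0.38 and -0.90 on KO 1 to KO 4, against -0.41, 0.02, 0.03 and -0.90 on WT 1 to WT 4. KO 4 and WT 4 shared the lowest value, and the difference was -0.33 ± 0.21 (SE, limma adjusted p = 0.361). Kremen1, which acts with Dkk proteins to remove Lrp6 from the surface, read 0.11, 0.32 and 0.40 on KO 1, KO 2 and KO 4, against 0.22, 0.17, -0.01 and 0.14 on WT 1 to WT 4. The groups overlapped at 0.14 ± 0.11 (SE), and its other probe gave -0.11. Wif1 differed by 0.32 ± 0.25, Dkk1 by -0.18 ± 0.19 and Sfrp1 by -0.11 ± 0.21 (SE).

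Feedback inhibitors, which canonical signalling is known to raise, had 5 of 6 means lower in KO (83.3%, beside 54.1% of all genes) and a median of -0.16. Notum, a secreted enzyme that inactivates Wnt ligands, was the exception. It read 0.99, 1.05, 0.34 and 1.02 on KO 1 to KO 4, against 0.58, 0.44, 0.45 and 0.47 on WT 1 to WT 4. KO 1, KO 2 and KO 4 lay above all WT arrays and KO 3 below all of them. The difference was 0.37 ± 0.15 (SE, limma adjusted p = 0.189).

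Axin2, the most used reporter of canonical signalling, read -0.14, 0.20, 0.08 and -0.44 on KO 1 to KO 4, against 0.22, 0.19, 0.04 and 0.15 on WT 1 to WT 4. KO 2 and KO 3 lay inside the WT range and KO 1 and KO 4 below it. The difference was -0.23 ± 0.13 (SE, limma adjusted p = 0.327). It was -0.81 with the scanner's own ratio and -0.51 with a background offset of 0, so its size depends on the processing. Without KO 4 the Axin2 difference was -0.11, so its size depends on single arrays too. Znrf3, a ubiquitin ligase that removes Frizzled receptors, read -0.11, 0.37, -0.12 and -0.17 on KO 1 to KO 4, against 0.12, 0.21, 0.57 and 0.26 on WT 1 to WT 4. KO 2 stood among the WT arrays and the other KO arrays below them. Its difference was -0.30 ± 0.15 (SE, limma adjusted p = 0.243), and -0.43 without KO 2 (limma adjusted p = 0.0305). Rnf43, the partner ligase of Znrf3, differed by -0.11 ± 0.11 (SE).

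Nkd1, an inhibitor that binds Dishevelled, read 0.07, 0.12, -0.36 and -0.64 on KO 1 to KO 4, against 0.30, 0.24, -0.01 and -0.51 on WT 1 to WT 4. The groups overlapped at -0.21 ± 0.22 (SE), and its other probe gave 0.03. Apcdd1, a membrane inhibitor, differed by -0.03 ± 0.11 (SE). The differences of the feedback inhibitors ran from Notum, the only one with a higher mean in KO, down to Znrf3. None of them passed the limma test with all arrays, so a shared direction is not settled.

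Among the other targets, Sp5 and Ascl2 carried the separation. Sp5, a zinc-finger factor induced by canonical Wnt signalling, read 1.77, 2.15, 1.06 and 0.95 on KO 1 to KO 4, against 0.22, 0.36, 0.06 and -0.69 on WT 1 to WT 4. The lowest KO array lay above the highest WT array, and KO 1 and KO 2 were the high pair, as for Fzd10. The mean was 1.48 ± 0.57 in KO and -0.01 ± 0.47 in WT (SD, n = 4 each). The difference was 1.50 ± 0.30 (SE) with a 95% interval of 0.82 to 2.17 (limma adjusted p = 0.105), and 1.27 without KO 2 (limma adjusted p = 0.0133). KO 2, which lay nearest the WT arrays for Lrp5, Fzd2 and Tcf7l1, was the highest array for Sp5.

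Ascl2, a basic helix-loop-helix factor known as a Wnt target in mouse intestinal stem cells, read 0.84, 0.48 and -0.04 on KO 1, KO 2 and KO 4, against -0.35, -0.35, -0.13 and -0.50 on WT 1 to WT 4. Its KO 3 spot was left out, and KO 4 lay just above WT 3. The difference was 0.76 ± 0.19 (SE, limma adjusted p = 0.112), 1.69-fold higher in KO, and 0.73 without KO 2 (limma adjusted p = 0.0569). Sp8, related to Sp5, read 0.04, 0.00, -0.05 and 0.11 on KO 1 to KO 4, against 0.40, -0.04, 0.28 and 0.11 on WT 1 to WT 4. Its difference of -0.16 ± 0.11 (SE) rests on a signal not above background on 4 arrays, and was -0.79 with the scanner's own ratio.

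Tnfrsf19 read 0.80, 0.92, -0.06 and 0.25 on KO 1 to KO 4, against 0.45, 0.48, 0.05 and -0.09 on WT 1 to WT 4. KO 1 and KO 2 were high, KO 3 and KO 4 lay in the WT range, and the difference was 0.26 ± 0.23 (SE), with -0.07 on the other probe. Cd44, a surface receptor for hyaluronan, read 0.64, 0.12, 0.34 and 1.01 on KO 1 to KO 4, against 0.89, 0.42, -0.04 and 0.32 on WT 1 to WT 4. Its arrays overlapped at 0.13 ± 0.23 (SE), and its other tested probe gave -0.12. A pair of Cd44 probes was too dim to be tested. One read -0.17 to 0.33 on the KO arrays, against -0.15 to -0.05 on the WT arrays, and the other -0.17 to -0.05 on the KO arrays, against 0.05 to 0.41 on the WT arrays. Ccnd1, which encodes cyclin D1, differed by 0.03 ± 0.14 (SE).

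A list of 71 further Wnt pathway genes, of which 58 could be tested, gave the setting of these values. None passed the limma test of 4 against 4 arrays. Of the 58, 35 were below 0 (60.3%, beside 54.1% of all genes), with a median of -0.09. On an unadjusted p under 0.05, 5 were higher and 15 lower in KO, or 8.62% and 25.9% beside 10.4% and 13.6% of all genes. Without KO 2, 6 passed upward and 15 downward, or 10.3% and 25.9% beside 10.0% and 11.2% of all genes. The KO and WT ranges were apart for 3 genes higher and 8 lower in KO, or 5.17% and 13.8% beside 4.22% and 7.62% of all genes. The 6 genes given below on every array had the smallest p of the list, so their lack of overlap follows in part from that choice. KO 2 was the KO array nearest the WT arrays for each of these 6. Leaving it out favours a pass, so their values without KO 2 are a description only.

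All 9 receptors of that list had a lower mean in KO, with a median of -0.37, where 54.1% of all genes were below 0. Such a shift was not particular to these receptors. The 11 stromal and 7 leukocyte markers tested were all lower in KO too, with medians of -0.37 and -0.34. By contrast, 6 of 7 endothelial and 6 of 7 urothelial markers were higher. Ror2, a receptor for Wnt5a, read -1.19, -0.97, -1.51 and -1.40 on KO 1 to KO 4, against -0.30, -0.38, -0.54 and -0.70 on WT 1 to WT 4. Every KO array was below every WT array, by -0.79 ± 0.14 (SE, limma adjusted p = 0.10), and it passed without KO 2 at -0.89 (limma adjusted p = 0.00316). Ptk7, a planar polarity co-receptor, read -0.44, -0.33 and -0.76 on KO 1, KO 2 and KO 4, against 0.22, 0.24, 0.15 and -0.25 on WT 1 to WT 4. Its groups did not overlap, the KO 3 spot was left out, and the difference was -0.60 ± 0.15 (SE, limma adjusted p = 0.112), or -0.69 without KO 2 (limma adjusted p = 0.0241).

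Dvl3, a Dishevelled protein that relays the signal from Frizzled, read -1.32, -0.19, -1.69 and -1.54 on KO 1 to KO 4, against -0.15, 0.01, 0.12 and -0.16 on WT 1 to WT 4. KO 2 lay just below the WT arrays and the other 3 KO arrays far below. The difference was -1.14 ± 0.29 (SE, limma adjusted p = 0.112), and -1.48 without KO 2 (limma adjusted p = 4.2e-04). Csnk1a1, the kinase that primes beta-catenin for degradation, read -0.30, 0.09, -0.54 and -0.59 on KO 1 to KO 4, against 0.19, 0.29, 0.23 and 0.18 on WT 1 to WT 4. Its groups did not overlap, at -0.56 ± 0.14 (SE, limma adjusted p = 0.112) and -0.70 without KO 2 (limma adjusted p = 0.00309), while its other probe gave 0.08.

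Apc2, a relative of Apc, read -0.13, -0.08, -0.17 and -0.12 on KO 1 to KO 4, against 0.11, 0.17, 0.16 and 0.20 on WT 1 to WT 4. Both groups were tight and did not overlap, at -0.28 ± 0.07 (SE, limma adjusted p = 0.112) and -0.29 without KO 2 (limma adjusted p = 0.0266). Hdac1, a histone deacetylase that acts as a corepressor, read 0.24, -0.11, 0.20 and 0.31 on KO 1 to KO 4, against -0.31, -0.28, -0.37 and -0.16 on WT 1 to WT 4. It was the one gene of these 6 with a higher mean in KO, at 0.44 ± 0.11 (SE, limma adjusted p = 0.112) and 0.53 without KO 2 (limma adjusted p = 0.00504). Other probes of Hdac1 gave -0.06 and 0.24. Wnt11, chosen after its values were seen because it marks the bud tip in the mouse, differed by -0.82 ± 0.23 (SE, limma adjusted p = 0.118). Its groups overlapped, with KO 2 at 0.28 above WT 3 at 0.23. Without KO 2 the difference was -0.98 (limma adjusted p = 0.0152).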

How the data were processed

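Each of 8 arrays read Cy5-labelled cRNA of 1 sample beside Cy3-labelled cRNA of WT replicate 3, each made from 0.5 µg of RNA per the labels' protocols. The deposited scanner files hold intensity values for 62976 spots, for which the submitters' processing notes name Agilent Feature Extraction at version 10.7.3.1. The deposited log10 ratios of Cy5 to Cy3, in the scanner files and in the series value table, were used as alternatives. The series value table is on that scale and direction, with a median of 0 on 7 arrays and of 0.0152 on KO 3. Because the files hold no mean signals, median spot signals and median local backgrounds were used.

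Normexp (offset 50) served as background correction and loess as normalisation of the log2 ratios of each array, in limma 3.58.1 under R 4.3.3, with control spots at weight 0. Outlier spots were dropped and repeated spots averaged. Probes had to be well above background in Cy5 on at least 4 arrays with at least 3 values per group, and the brightest such probe stood for its gene. Names were matched to the RefSeq table of GRCm38.p6 (21717 of 37850 distinct names). The 2-sided comparison of KO with WT used limma's lmFit and eBayes, and p-values were adjusted by Benjamini-Hochberg across 23343 genes or unnamed transcripts, with a threshold of 0.05. The comparison script was tested on simulated data. KO and WT samples share replicate numbers, but same-numbered samples did not deviate together (correlations of -0.24, 0.05, 0.11 and -0.03), so the numbers were not taken as pairs.

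Values on every array are given for the 3 genes of each role with the smallest p, genes past the threshold with all arrays or without KO 2, genes whose tested probes differ in sign, and the 6 further pathway genes with the smallest p. The genes, roles, further pathway list and markers were chosen with earlier results of these data known. Alternatives changed the background correction, the normalisation, the filter, the weights and the probe rule, added the replicate number as a block, or left out arrays. Figures were drawn with matplotlib 3.10.9.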

Additional observations from a re-analysis of the deposited data

Results flagged for a closer look

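Across 84 groups of 4 arrays, 7 held 1 array whose gap to the nearest other array, as a share of the group's range, was above Dixon's 95% critical value for 4 samples. Chance gives about 1 in 20 groups. In the KO group, Notum on KO 3 read 0.34 against 0.99 to 1.05 on the other KO arrays (share 0.922). Znrf3 on KO 2 read 0.37 against -0.17 to -0.11 (share 0.894), and Ccnd1 on KO 3 read 0.50 against 0.07 to 0.13 (share 0.854). In the WT group, Fzd10 on WT 4 read -0.87 against -0.22 to -0.08 on the other WT arrays (share 0.832). Axin1 on WT 2 read -0.20 against -0.05 to -0.03 (share 0.907). Dkk1 on WT 2 read 0.81 against 0.29 to 0.33 (share 0.921). Sfrp1 on WT 3 read 0.17 against -0.63 to -0.52 (share 0.866).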

How the results depend on the processing

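With all arrays at equal weight, 0 Wnt genes and 0 further pathway genes passed under every alternative run. With limma's array weights, 11 Wnt genes, 15 further pathway genes and 4353 of all genes passed. Leaving out 1 array in turn gave 0 to 10 Wnt genes, 0 to 21 further pathway genes and 1 to 4947 of all genes, the highest each without KO 2, and without KO 3 it gave 8 of all genes. Leaving out KO 2 and KO 3 together, an alternative added after seeing the data, gave 9, 15 and 5510. Of all genes, 1 passed with a normexp offset of 0, 1 with scaling between arrays, 1 with the mean over a gene's probes and 4 with no filter. None passed with median centring (6785 at an unadjusted p under 0.05), with Cy5 alone (3751) or with the replicate block (5264 and, among the Wnt genes, 0 passing), against 2 and 5616 in the comparison as reported. The median of all genes was -0.30 with median centring and -0.17 with Cy5 alone, and differences there are given relative to it. Of the 26 Wnt genes with values on every array by rule, 21 kept their sign under the 20 alternatives that give 1 value per gene (19 for Sp8) and 5 did not, and the cause was not tested. Among the 21, the tested probes of Tcf7l2, Nkd1 and Tnfrsf19 differ in sign. Of the 21, only Ascl2, Fzd10, Fzd8, Lrp5, Sp5 and Znrf3 stayed within 1.5 times the reported difference in all of these, and 15 did not. Axin2 ran from -0.81 with the scanner's ratio or the series table to -0.11 without KO 4. Sp8 ran from -0.79 with the scanner's ratio to -0.09 with Cy5 alone. Cy5 alone gave Wnt10a -0.88, Fzd3 -0.74, Tcf7 -0.88, Tcf7l1 -0.83, Dkk3 0.47 and Notum 0.56. The mean over probes gave Fzd2 -0.44, Tcf7l2 -0.11 and Tnfrsf19 0.09. Wnt5a ran from -0.37 to -0.02, Wnt7b from 0.07 to 0.30, Nkd1 from -0.38 to -0.06, Sfrp2 from -0.53 to -0.22 and Tnfrsf19 from 0.09 to 0.44. Apc, at -0.03 as reported, was 0.068 with the scanner's ratio, 0.067 with the series table, 0.083 with median centring, 0.037 with array weights, 0.0064 with the mean over probes and 0.11 without KO 2 and KO 3. Leaving out 1 array gave Apc -0.084 to 0.020, above 0 without KO 2, KO 3 or WT 2. Wnt4 was -0.035 with median centring, -0.068 with array weights, -0.065 with the mean over probes and -0.032 without KO 2 and KO 3. Leaving out 1 array gave Wnt4 -0.093 to 0.24, below 0 without KO 2 or WT 3. Lrp6 was -0.24 with median centring and -0.15 with the mean over probes. Leaving out 1 array gave Lrp6 -0.021 to 0.13, below 0 without KO 3 or WT 4. Cd44 was -0.086 with Cy5 alone, and leaving out 1 array gave -0.031 to 0.29, below 0 without KO 4 or WT 3. Kremen1 was -0.037 with the mean over probes. Signal near background limits Sp8, Wnt2b and Wnt7a, and the number of arrays limits all precision.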
